A study of Homo sapiens with 6 samples.

Results

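The 66 genes described here encode the matrix metalloproteinases (MMP), the ADAM and ADAMTS metalloproteinases and the tissue inhibitors of metalloproteinases (TIMP). They were taken from the 58825 genes of the count file by name alone, as every protein-coding gene of GENCODE 44 called MMP, ADAM, ADAMTS or TIMP plus its number. The rule gave 23 MMP, 20 ADAM, 19 ADAMTS and 4 TIMP genes and used no measured value.

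RNA was sequenced from HGC-27, a line of undifferentiated human gastric cancer cells that came from a lymph node metastasis. The 6 libraries were 3 replicates labelled GC0643 overexpression and 3 replicates labelled vector control, where GC0643 is a gene predicted by the study. Both sets of cells were stable lines made with retrovirus and selected with puromycin, so both carry a vector, and whether a line was 1 clone or a pool is not given in the sources used here. GC0643 itself is not analysed here, so the counts do not check which libraries carry it. The directions in the study's own list of changed genes run opposite to those computed here with the labels, so every direction below is that of the labels and would turn if the groups were exchanged. The Methods mention independent repeats of cell culture experiments as a whole but do not say what was repeated for these libraries, so p-values measure the spread among the libraries, which may be technical.

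Total counts ranged from 20376722 to 24069166 per library. Levels are CPM, the counts of a gene scaled to a common library total with TMM factors, and levels of different genes were compared as CPM per kilobase of exon. The exon length was that of all annotated exons of a gene merged, which can be much longer than its canonical transcript. Comparisons of level between genes therefore depend on this choice. The labelled cell type was looked for with markers of gastric epithelium: the 11 markers together reached 4.48 to 9.02 CPM in the GC0643 overexpression libraries and 6.24 to 7.28 CPM in the vector controls, TFF2, GKN1 and PGC had no count, and the epithelial cadherin CDH1 had 27 counts in all libraries together. Of 5 mesenchymal markers, VIM (vimentin) lay between 3061 and 3371 CPM, whereas the cadherin CDH2 had only 32 counts in all libraries together. In log CPM over all genes tested, vector control replicate 2 was closer to 2 libraries of the other group than to those of its own. Its correlation was 0.991 with GC0643 overexpression replicate 2 and 0.991 with replicate 3, against 0.988 and 0.977 with vector control replicates 1 and 3. Vector control replicate 3 stood furthest from the rest, with correlations of 0.972 to 0.986. Results are therefore also given without each of these vector controls.

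MMPs are zinc enzymes that cut collagens and other matrix proteins, either secreted or anchored in the cell membrane. ADAMs sit in the membrane and release the outer parts of other membrane proteins, among them growth factors, cytokines and Notch, while several have lost the catalytic residues and act in adhesion. ADAMTS enzymes are secreted and cut proteoglycans, procollagens and von Willebrand factor. TIMPs block the active site of MMPs and of some ADAM and ADAMTS enzymes. Most of these enzymes are made as inactive precursors, so RNA levels do not measure activity.

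The enzyme set of these cells was sparse. No count was found in any library for 13 of the 66 genes, which allows a level of up to 0.0235 CPM over the 6 libraries pooled (3 counts, counting error only). Another 14 genes had between 1 and 43 counts in total and did not pass the filter on low counts. The remaining 39 genes were tested, with totals of 64 to 44906 counts. Of these, 28 reached 1 CPM per kilobase and 6 reached 10, namely ADAM15, TIMP2, MMP14, TIMP1, MMP15 and MMP2. Which genes reach these levels depends on the exon length used.

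**Figure D1:**
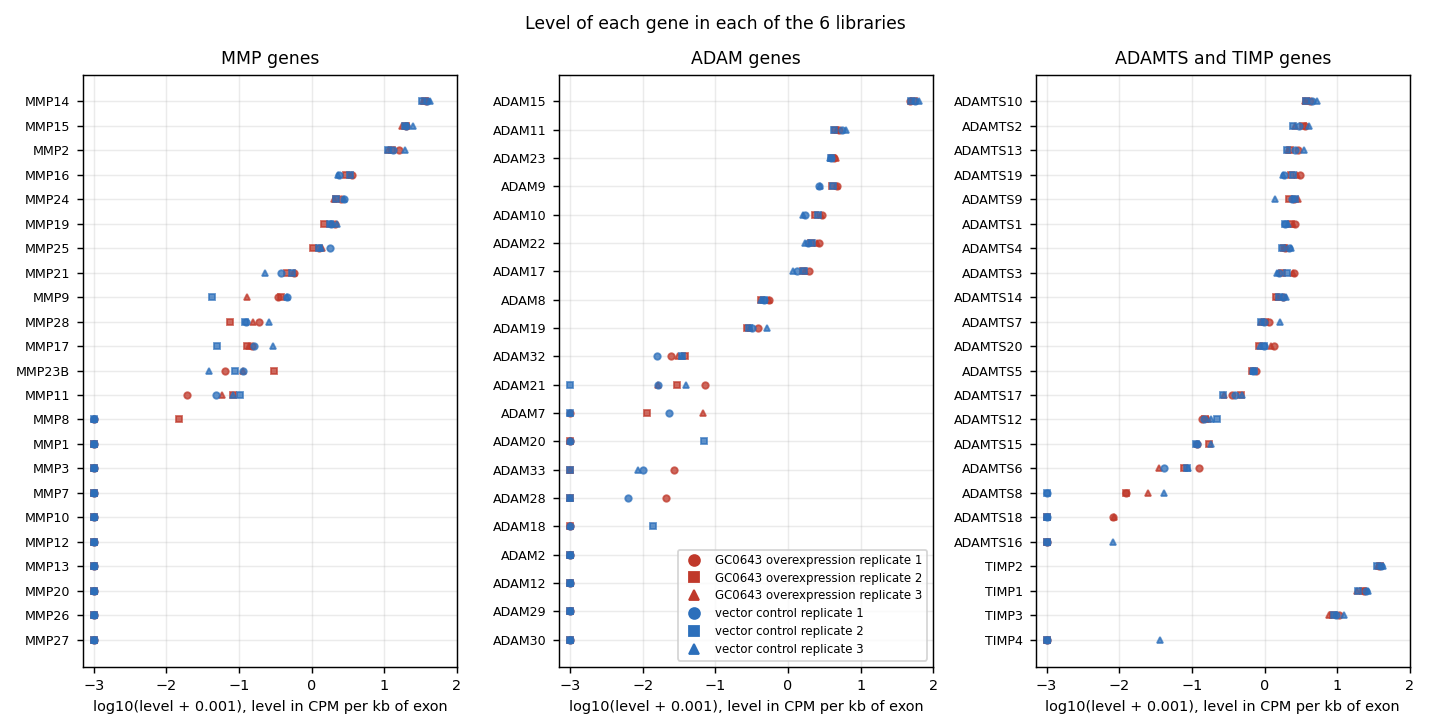
Level of each of the 66 genes in each of the 6 libraries, as log10 of CPM per kilobase of exon plus 0.001, with families in separate panels (ADAMTS and TIMP share one) and genes in order of mean level within each family. Points at the left edge are libraries with no count, which include every library for 9 MMP and 4 ADAM genes; ADAM15, TIMP2 and MMP14 lie furthest to the right.

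The secreted collagenases, stromelysins and matrilysins were at or near 0. MMP1 and MMP13 (collagenases), MMP3 and MMP10 (stromelysins), MMP7 (matrilysin), MMP12 (macrophage elastase), MMP20 (enamelysin) and MMP27 had no count, and MMP8 (neutrophil collagenase) had 1 count, in GC0643 overexpression replicate 2. These 9 genes form a cluster on chromosome 11 in the order MMP7, MMP20, MMP27, MMP8, MMP10, MMP1, MMP3, MMP12 and MMP13, which spans 435 kb (GRCh38, chr11:102520508-102955732). Outside the cluster, MMP26 also had no count, and MMP11 and MMP23B had 43 and 33 counts in total. MMP23B has a near-identical copy, so reads may have been split between them.

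The sequence before the gene start differed between the silent cluster and the expressed genes. RefSeq promoters (GRCh38.p14) were at hand for 39 of the 66 genes, and the 250 bases before the start were read. Where a gene had more than 1 promoter, the one with the most CG dinucleotides was kept. No such choice was made for the promoters of all genes, so the CG counts of the 39 may be raised against them. CG dinucleotides, which mark CpG-rich promoters, had a median of 25 in the 24 tested genes with a promoter and of 2 (range 0 to 3) in the 5 cluster genes with one, against 11 over all 35116 promoters of the same length. At least 10 CG were present in 20 of the 24 tested genes (83.3%), in none of the 5 cluster genes and in 52.2% of all promoters. TATAAA, the core of the TATA box, was found in 4 of the 5 cluster promoters and in 10.7% of all promoters. TGANTCA, with any base at N, was found in 3 of the 5 and in 6.57% of all promoters. It is looser than the core bound by AP-1 factors, which has C or G at N. MMP7 holds TGAGTCA, whereas MMP10 holds TGAATCA, which lacks C or G there. The 3 genes that held both, MMP7, MMP10 and MMP20, compare with 1.07% of all promoters. The 10 genes outside the cluster that had a promoter but were not tested did not share this pattern as a group. Their median was 11.5 CG, 60% had at least 10, 10% held TATAAA and 0 held TGANTCA. The contrast is thus one of this cluster and not of all genes at low counts. Low CG counts alone were not confined to the cluster, with 0 in MMP26 and ADAM20, 1 in ADAM21 and 4 in ADAM29. Both strands were searched, and the motifs do not overlap in these windows. Genes of a cluster arose by duplication and are not independent examples.

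A pair of windows from each side shows the contrast, each read 5′ to 3′ on the gene's strand. In the first pair, from expressed genes, capitals mark each CG: 7 in MMP14 (chr14:22836335-22836584, plus strand) and 31 in MMP15 (chr16:58025504-58025753, plus strand).
MMP14: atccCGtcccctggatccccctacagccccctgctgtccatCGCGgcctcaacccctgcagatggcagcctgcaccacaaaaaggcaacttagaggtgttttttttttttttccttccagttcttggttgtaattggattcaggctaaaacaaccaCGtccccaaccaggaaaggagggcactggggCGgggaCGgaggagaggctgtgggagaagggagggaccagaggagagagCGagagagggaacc
MMP15: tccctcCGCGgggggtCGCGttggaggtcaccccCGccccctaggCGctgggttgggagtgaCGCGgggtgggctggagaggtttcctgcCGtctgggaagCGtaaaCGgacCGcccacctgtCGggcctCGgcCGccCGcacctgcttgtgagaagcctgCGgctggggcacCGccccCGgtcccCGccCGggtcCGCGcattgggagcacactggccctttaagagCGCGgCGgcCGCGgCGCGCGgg
In the second pair, from genes with no count, capitals mark TGANTCA and then TATAAA. In MMP7 (chr11:102530748-102530997, minus strand) they begin 67 and 30 bases before the start, and in MMP10 (chr11:102780629-102780878, minus strand) 67 and 31 bases before it.
MMP7: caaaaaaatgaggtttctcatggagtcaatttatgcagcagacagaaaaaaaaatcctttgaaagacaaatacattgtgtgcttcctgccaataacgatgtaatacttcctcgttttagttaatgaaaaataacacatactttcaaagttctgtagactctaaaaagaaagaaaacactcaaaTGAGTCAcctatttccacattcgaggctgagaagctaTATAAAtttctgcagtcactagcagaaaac
MMP10: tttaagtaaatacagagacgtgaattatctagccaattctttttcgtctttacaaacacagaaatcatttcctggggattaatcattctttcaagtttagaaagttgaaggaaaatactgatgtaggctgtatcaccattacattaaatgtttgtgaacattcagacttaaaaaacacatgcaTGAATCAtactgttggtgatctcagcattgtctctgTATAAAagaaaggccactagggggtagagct
MMP7 holds 3 CG and MMP10 holds 2. MMP14, with 7 CG in this window, was the MMP gene with the highest level. The reverse also occurred, since ADAM12 had 31 CG and no count, and ADAMTS18 had 24 CG and 2 counts. No methylation or binding was measured in these cells here.

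**Figure D2:**
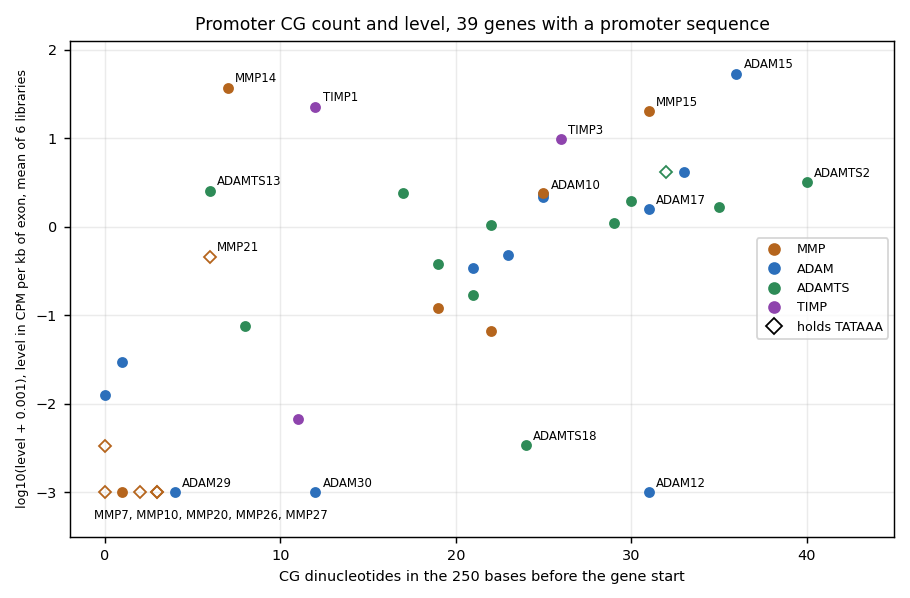
CG dinucleotides in the 250 bases before the gene start (x axis) and mean level of the 6 libraries as log10 of CPM per kilobase plus 0.001 (y axis) for the 39 genes with a promoter sequence, coloured by family, with open diamonds for windows that hold TATAAA. The cluster genes sit at the lower left with 0 to 3 CG, whereas MMP14 with 7 CG lies near the top and ADAM12 with 31 CG at the bottom.

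Among the MMPs, membrane-anchored enzymes and MMP2 carried most of the RNA. MMP14, MMP15 and MMP2 held 87.8% of the summed CPM per kilobase of the family. MMP14 (chr14:22836560-22849041, plus strand, positions in GRCh38 here and below), a membrane enzyme that cuts fibrillar collagen and activates the precursor of MMP2, reached 37.2 ± 3.33 CPM per kilobase (SD, n = 6 libraries). MMP15, a membrane-anchored relative, reached 20.2 ± 2.41, and MMP2 (gelatinase A, chr16:55389700-55506691) 13.9 ± 3.03 CPM per kilobase. The ranges of MMP15 (17.6 to 24.7) and MMP2 (11.3 to 19.2) overlapped, whereas MMP14 (33.3 to 42.8) lay above both. MMP16 and MMP24, further membrane enzymes, had 3.03 ± 0.593 and 2.40 ± 0.332 CPM per kilobase. MMP9 (gelatinase B), often raised in invasive tumours, had 92 counts in total.

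Per kilobase of merged exons, the inhibitors were about as abundant as their main partners. The canonical transcripts are shorter, 3652 against 6209 bases for TIMP2, 3701 against 4623 for MMP14 and 769 against 1446 for TIMP1. The likeness of these levels, and the ratio given below, therefore depend on the length chosen. TIMP2 (chr17:78852977-78925387), which forms the complex through which MMP14 activates MMP2, had 38.8 ± 2.70 CPM per kilobase, a range of 35.9 to 43.0 that overlapped that of MMP14. TIMP1 followed at 22.6 ± 3.14 and TIMP3, the inhibitor that binds to the matrix, at 9.70 ± 1.61 CPM per kilobase. TIMP4 had 1 count. The ratio of MMP14 to TIMP2 per kilobase was 0.957 ± 0.0193 in the GC0643 overexpression libraries and 0.961 ± 0.0337 in the vector controls (SD, n = 3 each), and the values of the groups overlapped.

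Among the ADAMs, ADAM15 stood alone. This membrane enzyme (chr1:155050566-155062775), whose disintegrin domain binds integrins, had 53.1 ± 5.83 CPM per kilobase, the highest level of the 66 genes, and made up 72.7% of the ADAM sum. Its range of 47.1 to 62.7 CPM per kilobase did not overlap that of TIMP2, the next gene. ADAM11 and ADAM23, which lack the catalytic residues, followed at 5.02 ± 0.726 and 4.11 ± 0.276 CPM per kilobase. The sheddases ADAM9, ADAM10 and ADAM17 had 3.82 ± 0.925, 2.33 ± 0.567 and 1.56 ± 0.272 CPM per kilobase. Their canonical transcripts have 4112, 11158 and 4391 bases, against 17704, 15979 and 15964 bases of merged exons. Those of ADAM11 and ADAM23 have 4614 and 6334 bases against 4813 and 6425. The order of these genes after ADAM15 therefore depends on the length chosen. ADAM12 had no count. The ADAMTS family had no dominant gene: ADAMTS10, a partner of fibrillin microfibrils, led with 16.0% of the family sum, followed by ADAMTS2 at 3.20 ± 0.642 and ADAMTS13 at 2.54 ± 0.555 CPM per kilobase. ADAMTS2 removes the N-terminal peptide of procollagens, and ADAMTS13 cuts von Willebrand factor. ADAMTS19 and ADAMTS9 came next at 2.38 ± 0.524 and 2.34 ± 0.525, within the range of ADAMTS13.

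The sums of the families differed between the groups by less than the SD of the vector controls. For the MMPs the sum was 78.5 ± 5.24 CPM per kilobase with GC0643 overexpression and 84.0 ± 11.8 in the vector controls. The ADAM sums were 71.0 ± 1.53 and 75.04 ± 5.74, the ADAMTS sums 26.5 ± 2.34 and 25.7 ± 2.16, and the TIMP sums 68.4 ± 5.27 and 73.7 ± 8.93 CPM per kilobase (SD, n = 3 each). The values of the groups overlapped in each family.

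Gene by gene, no call passed the correction for multiple tests. By edgeR's quasi-likelihood test with Benjamini-Hochberg adjustment over the 19528 genes tested, 0 of the 39 genes had an adjusted p under 0.05, as for 0.0% of all genes, and the smallest adjusted p among the 39 was 0.26. Without adjustment, 7 of the 39 (17.9%) were higher at p under 0.05 with GC0643 overexpression, against 13.1% of all genes, and 0 were lower, against 5.26%. Those numbers were 4 and 0 by DESeq2, 5 and 0 by limma voom, and 6 and 0 by edgeR's likelihood ratio test. The shares of all genes in these alternative fits were not counted, so the numbers cannot be read against them. With the added demand of a fold change over 1.5, the threshold of the study, 0 were higher and 0 lower, against 1.6% and 0.871% of all genes. The CPM ranges of the groups did not overlap in 2 genes that were higher, ADAMTS1 and ADAM23, and in 0 that were lower, against 11.8% and 10.5% of all genes. The median log2 fold change of the 39 was -0.077, against 0.018 over all genes tested. In bulk RNA, a change in the share of cells that express a gene and a change in RNA per cell cannot be told apart.

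**Figure D3:**
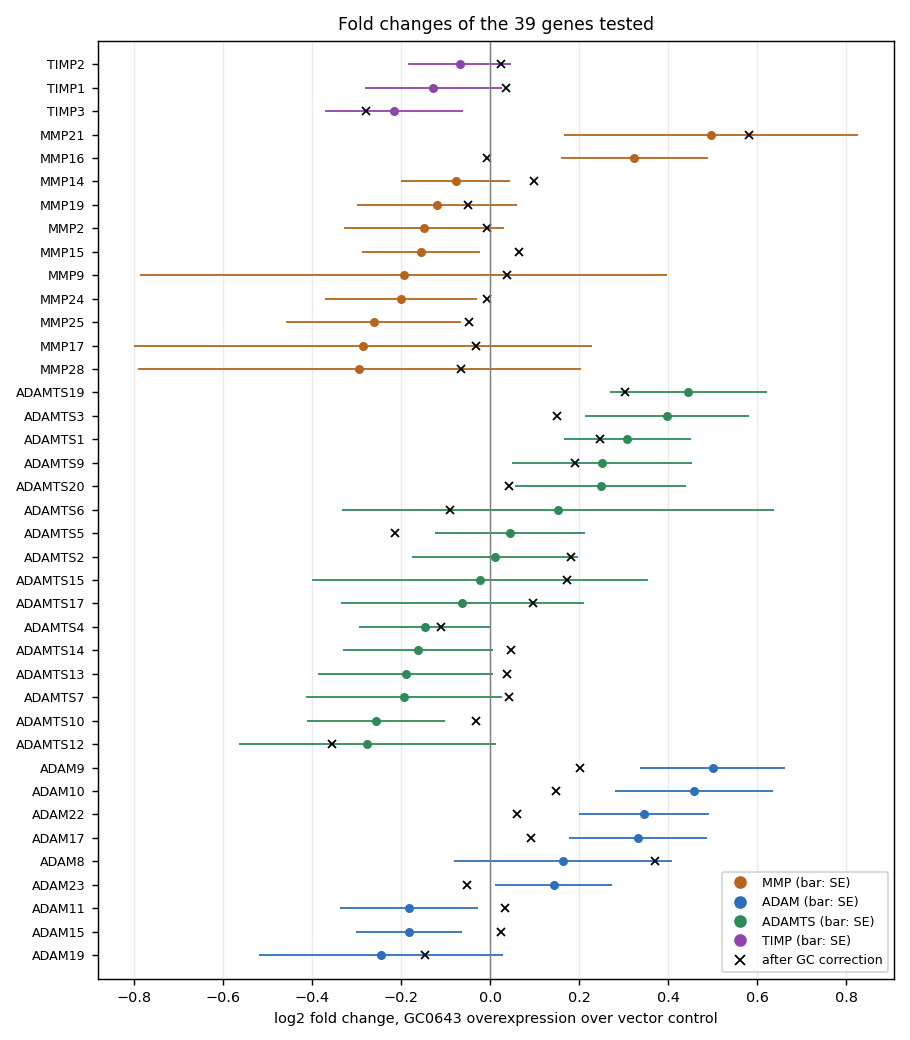
Log2 fold change of GC0643 overexpression over vector control for the 39 genes tested, coloured by family, with bars of 1 standard error and crosses for the value after GC correction. ADAM9 at 0.50 and MMP21 at 0.50 lie furthest to the right, and 23 of the 39 points lie left of 0.

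The 7 genes at an unadjusted p under 0.05 were 4 ADAM and 3 ADAMTS genes. ADAM9, a sheddase of growth factor precursors, had 83.6, 70.8 and 83.5 CPM with GC0643 overexpression (replicates 1 to 3, in that order here and below) and 47.3, 72.9 and 48.1 CPM in the vector controls. Vector control replicate 2 lay inside the range of the other group, and the remaining vector controls lay below it. The fold change was 1.41 (log2 0.50 ± 0.164 SE, adjusted p = 0.26).

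ADAM10 (chr15:58588809-58749791), which cuts Notch and the amyloid precursor protein APP, also had vector control replicate 2 inside the range of the other group and the remaining vector controls below it. It had 46.4, 37.6 and 45.4 CPM with GC0643 overexpression and 27.3, 41.7 and 25.4 CPM in the vector controls, a log2 fold change of 0.46 ± 0.177 (adjusted p = 0.26). ADAM17 (chr2:9488486-9556732), which releases tumour necrosis factor and ligands of the EGF receptor, had 30.9, 25.5 and 27.0 CPM against 21.0, 26.3 and 18.9 CPM, a log2 fold change of 0.33 ± 0.155 (adjusted p = 0.27). In each of these sheddases vector control replicate 2 was above GC0643 overexpression replicate 2. The ADAM17 exons share 10.3% of their length with exons of IAH1 on the opposite strand, and whether the counting used strand is not stated for these libraries.

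ADAM22 lacks the catalytic residues and is a neuronal receptor of the LGI proteins. It had 36.6, 28.2 and 34.1 CPM with GC0643 overexpression and 25.3, 28.9 and 23.7 CPM in the vector controls (log2 fold change 0.35 ± 0.147, adjusted p = 0.26). Its relative ADAM23 had a smaller difference with no overlap, 26.1 to 29.2 CPM against 24.6 to 25.4 CPM (log2 fold change 0.14 ± 0.132, adjusted p = 0.52).

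ADAMTS1 (chr21:26835755-26845409), which cuts the proteoglycans versican and aggrecan, was the only one of the 7 whose groups did not overlap. It had 18.9, 16.8 and 17.9 CPM with GC0643 overexpression and 14.1, 14.1 and 15.1 CPM in the vector controls, a fold change of 1.24 (log2 0.31 ± 0.143, adjusted p = 0.27). ADAMTS3, a procollagen peptidase that also serves in the processing of VEGF-C, had 17.6, 12.1 and 17.4 CPM against 11.2, 14.2 and 10.3 CPM (log2 fold change 0.40 ± 0.184, adjusted p = 0.27). ADAMTS19 had 16.8, 12.6 and 15.1 CPM against 9.85, 13.2 and 9.61 CPM (log2 fold change 0.45 ± 0.176, adjusted p = 0.26). In both of these genes vector control replicate 2 again exceeded GC0643 overexpression replicate 2.

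**Figure D4:**
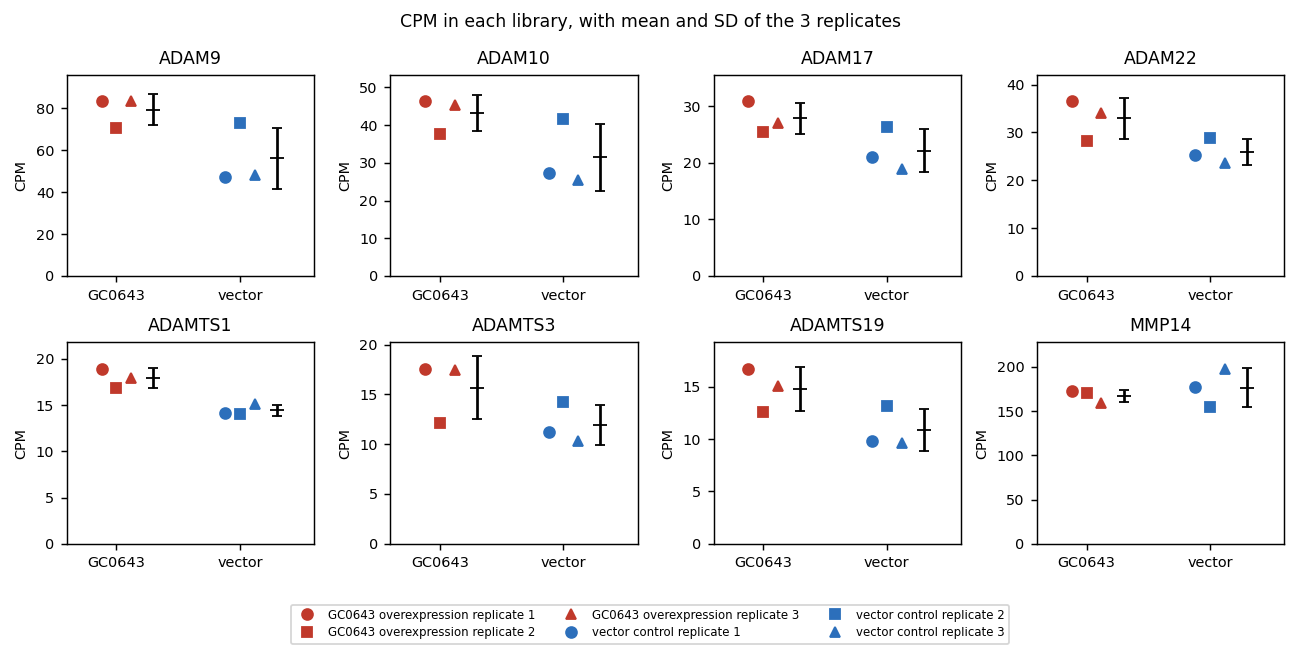
CPM in each library for the 7 genes at an unadjusted p under 0.05 and for MMP14, with the axis from 0; red symbols are GC0643 overexpression, blue symbols vector control, shapes are replicate numbers, and black bars give the mean and SD of 3 replicates. In 6 of the 7 genes, all but ADAMTS1, the blue square (vector control replicate 2) lies among the red symbols; in MMP14 the groups overlap.

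The 6 abundant genes had smaller differences, all negative and none at an unadjusted p under 0.05, and after GC correction all of them but MMP2 were positive. ADAM15 had 310.2, 351.4 and 321.3 CPM with GC0643 overexpression and 373.9, 328.8 and 412.8 CPM in the vector controls (log2 fold change -0.18 ± 0.120, 95% interval -0.44 to 0.072). MMP14 had 172.2, 170.6 and 159.4 CPM against 177.7, 154.2 and 198.0 CPM, a log2 fold change of -0.077 with an interval of -0.34 to 0.18. TIMP2 had 237.1, 244.5 and 223.3 CPM against 249.4, 222.7 and 266.7 CPM, a log2 fold change of -0.068 with an interval of -0.31 to 0.18. For MMP14 and TIMP2, changes by a factor of 1.5 in either direction lie outside these intervals.

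The highest value of MMP2 was in a vector control. It had 74.1, 59.4 and 53.2 CPM with GC0643 overexpression and 62.9, 53.7 and 90.2 CPM in the vector controls (log2 fold change -0.15, interval -0.53 to 0.24). MMP15 had 84.5, 83.8 and 74.3 CPM against 83.9, 81.2 and 104.7 CPM (log2 fold change -0.15, interval -0.44 to 0.13). MMP9 varied more within the groups than between them, with 17, 19 and 6 counts against 22, 2 and 26 counts (log2 fold change -0.19, interval -1.46 to 1.07). That interval spans a factor of more than 2 in both directions, so smaller differences in MMP9 were not detectable at this depth. MMP9 exons share 18.4% of their length with exons of SLC12A5-AS1 on the opposite strand.

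Of the inhibitors, TIMP1 had 33.6, 33.1 and 27.0 CPM against 36.2, 27.7 and 38.4 CPM (log2 fold change -0.13, interval -0.46 to 0.20). TIMP3, which also inhibits ADAM17, had 48.5, 39.7 and 35.6 CPM against 45.02, 42.0 and 56.8 CPM (log2 fold change -0.22, interval -0.55 to 0.11). In all 3 TIMP genes tested the highest library was vector control replicate 3. MMP16 had 43.9, 35.5 and 42.8 CPM against 28.5, 41.3 and 27.8 CPM (log2 fold change 0.32 ± 0.165, adjusted p = 0.29). As in ADAM9, vector control replicate 2 lay among the GC0643 overexpression libraries and the other vector controls lay below. The other membrane-type MMPs tested, MMP14, MMP15, MMP17, MMP24 and MMP25, had negative fold changes, which turned positive after GC correction for MMP14 and MMP15, and that of MMP16 turned negative. MMP24 (log2 fold change -0.20) shares 18.4% of its exon length with MMP24OS, and MMP25 shares 30.6% with MMP25-AS1.

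Among the other named genes, ADAM11 (log2 fold change -0.18, adjusted p = 0.49), ADAMTS10 (-0.26, adjusted p = 0.35) and ADAMTS13 (-0.19, adjusted p = 0.57) had negative values. ADAMTS2 had 0.012 (adjusted p = 0.98) and ADAMTS9 0.25 (adjusted p = 0.46). ADAMTS9, which cuts versican, had its lowest value in vector control replicate 3, with 14.9 CPM against 23.3 to 31.0 CPM in the other libraries. Without that library its log2 fold change was 0.0089, and without vector control replicate 2 it was 0.44.

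The direction of the differences followed the base composition of the genes, as it did over all genes tested. The split at 50% GC in the canonical transcript was chosen after the values were seen. Of the 15 genes under 50% GC, 13 had a positive log2 fold change (median 0.31), and the 7 at an unadjusted p under 0.05 were among them, against 24.5% of all genes under 50% GC. Of the 24 at 50% GC or more, 21 had a negative one (median -0.16), and 0 were lower at an unadjusted p under 0.05, against 10.3% of all such genes. Over all genes tested, 81.3% of those under 50% GC were positive (median 0.25) and 79.6% of those at 50% GC or more were negative (median -0.17). Spearman's rho between GC content and fold change was -0.72 over the 39 genes and -0.67 over 19401 genes, a description over genes that share the same libraries. Against the mean of the 6 libraries, the median deviation of the 15 GC-poor genes (log2 of CPM + 0.1) was 0.33, -0.022 and 0.23 with GC0643 overexpression and -0.20, 0.072 and -0.30 in the vector controls. GC0643 overexpression replicate 2 and vector control replicate 2 thus lay close together, between the others. What set this relation was not tested.

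**Figure D5:**
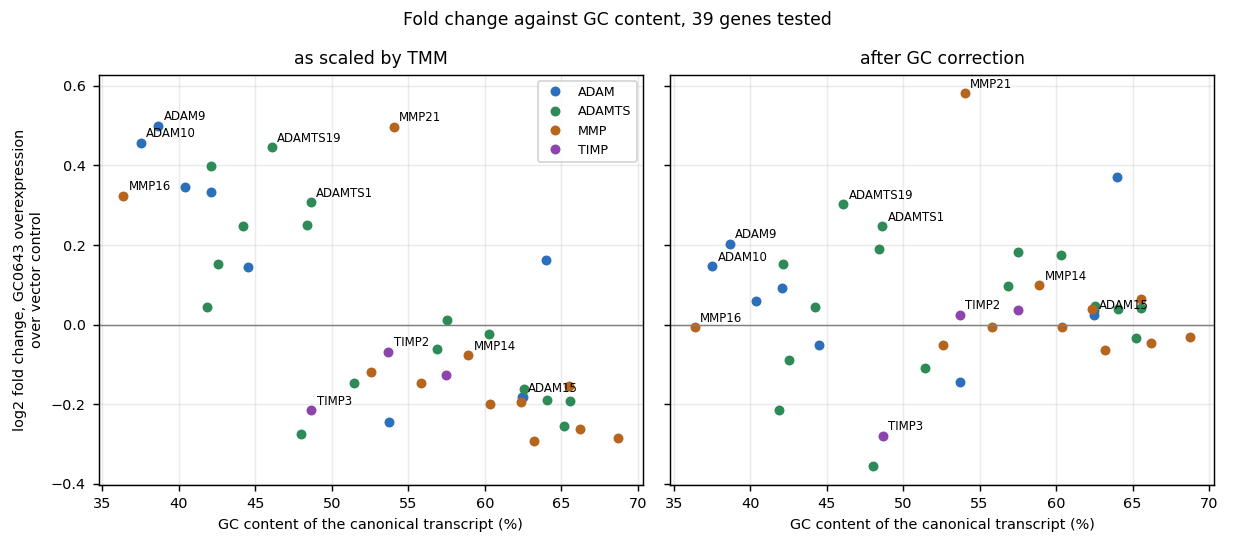
Log2 fold change of GC0643 overexpression over vector control against the GC content of the canonical transcript for the 39 genes tested, coloured by family, before (left) and after (right) the GC correction. The downward slope on the left, Spearman's rho -0.72, is nearly level on the right, -0.049.

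After a correction for GC content within each library, 2 of the 39 genes were higher at an unadjusted p under 0.05, against 2.87% of all genes, and 0 were lower, against 3.24%. They were ADAMTS19 (log2 fold change 0.30) and ADAMTS1 (0.25). The value of ADAM9 moved from 0.50 to 0.20, that of ADAM10 from 0.46 to 0.15, that of ADAM17 from 0.33 to 0.091 and that of ADAM22 from 0.35 to 0.060. MMP16 moved from 0.32 to -0.0061 and MMP14 from -0.077 to 0.0996, so their signs turned. By family, the median log2 fold change was -0.15 for 11 MMP genes and -0.0061 after correction, 0.16 and 0.060 for 9 ADAM genes, -0.0058 and 0.045 for 16 ADAMTS genes, and -0.13 and 0.024 for 3 TIMP genes, so the ADAMTS and TIMP medians changed sign.

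Leaving out vector control replicate 2 changed the calls. Without it, 7 of the 39 genes had an adjusted p under 0.05 by edgeR's quasi-likelihood test, all higher with GC0643 overexpression, against 20% (3902) of all genes in either direction. They were ADAM9 (log2 fold change 0.73, adjusted p = 0.0098), ADAM10 (0.71, adjusted p = 0.0098), ADAM17 (0.48, adjusted p = 0.029), ADAM22 (0.43, adjusted p = 0.044), ADAMTS3 (0.54, adjusted p = 0.048), ADAMTS19 (0.61, adjusted p = 0.024) and MMP16 (0.53, adjusted p = 0.017). ADAMTS1 had 0.29 (adjusted p = 0.14). Without adjustment, 9 were higher at p under 0.05, against 23.2% of all genes, and 3 were lower, ADAM11, ADAM15 and ADAMTS10, against 14.6%. Past the fold change of 1.5 as well, 4 were higher (ADAM9, ADAM10, ADAMTS19 and MMP21), against 8.75%, and 0 were lower, against 1.97%. With the GC correction and without this library, 0 had an adjusted p under 0.05, as did 0 of all genes tested. The likeness of this library to the other group was known when these counts were made.

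Without vector control replicate 3, 0 of the 39 genes had an adjusted p under 0.05 by edgeR's quasi-likelihood test, against 0.138% of all genes. At an unadjusted p under 0.05, 4 were higher (ADAM9, ADAM10, ADAMTS1 and ADAMTS19), against 7.81%, and 0 were lower. The share of all genes that were lower in this fit was not counted. The negative fold changes of the abundant genes came closer to 0 or turned. MMP2 moved from -0.15 to 0.088, MMP14 from -0.077 to 0.0057, MMP15 from -0.15 to -0.038 and TIMP3 from -0.22 to -0.083, all on the log2 scale. The median log2 fold change of the 39 genes moved from -0.077 to 0.11, against a median over all genes of 0.020 in the same fit.

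None of the genes listed as working with these enzymes had an adjusted p under 0.05 by edgeR's quasi-likelihood test. Of 13 activators and other inhibitors, 9 were tested, 8 with a negative fold change (median -0.21, and -0.11 after GC correction). The groups did not overlap in 4 of the 9, FURIN, PCSK6, PCSK7 and PLAUR, all lower with GC0643 overexpression, against 10.5% of all genes. PCSK7, a proprotein convertase, was lower at an unadjusted p under 0.05, with 77.5, 90.2 and 87.4 CPM against 106.0, 102.3 and 103.4 CPM (log2 fold change -0.29 ± 0.118, adjusted p = 0.26). It was the only 1 of the 9, against 5.26% of all genes, and 0 were higher, against 13.1%. FURIN, the convertase that activates MMP14, had 30.5 ± 0.865 against 38.1 ± 7.83 CPM (log2 fold change -0.32, adjusted p = 0.27). After GC correction PCSK7 had a log2 fold change of -0.14 and FURIN one of -0.11. Of the 9, 1 was then lower at an unadjusted p under 0.05, TFPI2 (-0.34), against 3.24% of all genes. In the same fit 0 were higher, against 2.87%. RECK, a membrane-anchored inhibitor of MMPs, had no count. The 9 partners of ADAM17 and ADAM10 are rhomboid-like proteins, their binding protein FRMD8 and tetraspanins. All were tested, 8 with a negative fold change (median -0.19, and 0.0026 after GC correction). At an unadjusted p under 0.05, 0 were higher, against 13.1% of all genes, and 0 were lower, against 5.26%.

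Of 31 membrane proteins that are shed, 22 were tested, 10 positive and 12 negative, with 3 (13.6%) higher at an unadjusted p under 0.05, against 13.1% of all genes, and 0 lower, against 5.26%. APP had 629.4 ± 29.4 against 503.1 ± 86.5 CPM (log2 fold change 0.32, adjusted p = 0.26), CD44, a hyaluronan receptor, 56.6 ± 2.09 against 46.9 ± 1.18 CPM (0.27), and SDC2, a syndecan, 139.6 ± 5.44 against 113.9 ± 18.6 CPM (0.29). After GC correction CD44 had 0.069 and SDC2 0.045. Of the 22, 1 was then higher at an unadjusted p under 0.05, against 2.87% of all genes, and 0 were lower, against 3.24%. The groups of 4 of the 22, APP and CD44 among them, did not overlap, all higher, against 11.8% of all genes.

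Of 25 matrix proteins that are cut, 16 were tested, 11 positive and 5 negative, with 3 (18.8%) higher at an unadjusted p under 0.05, against 13.1% of all genes, and 0 lower, against 5.26%. DCN (decorin) had 154.1 ± 3.47 against 111.2 ± 25.5 CPM (log2 fold change 0.47). COL1A2, a chain of type I collagen, had 131.8 ± 25.5 against 95.7 ± 11.1 CPM (0.46), and FN1 (fibronectin) had 52.2 ± 13.4 against 36.9 ± 7.15 CPM (0.50). After GC correction COL1A2 and FN1 had 0.57 and 0.51, and DCN had 0.17. Of the 16, 3 were then higher at an unadjusted p under 0.05, against 2.87% of all genes, and 0 were lower, against 3.24%. The groups of 3 of the 16 did not overlap, all higher, against 11.8% of all genes. Of 15 relatives outside the naming rule, such as BMP1 and the ADAMTS-like proteins, 10 were tested, 3 positive and 7 negative. At an unadjusted p under 0.05, 0 of these were higher and 0 lower, against 13.1% and 5.26% of all genes. Fibroblast markers were also higher, but DCN is 1 of them and is counted among the matrix genes too. The sum of the 5 markers (PDGFRA, PDGFRB, DCN, LUM and FAP, with none at 0) was 360.0 to 385.8 CPM with GC0643 overexpression. In the vector controls it was 215.5 to 317.2 CPM. Of the 5, 4 were higher at an unadjusted p under 0.05 and 2 after GC correction, against 13.1% and 2.87% of all genes. The median GC content of these markers was 38.8%. Their part in the results was not tested. The 5 endothelial markers reached at most 0.560 CPM together, with PECAM1 at 0, and the 6 leukocyte markers lay between 2.52 and 3.55 CPM together, with CD3E at 0.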

How the data were processed

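RNA of HGC-27 cells was measured in 6 libraries, 3 per group. The deposited values are raw counts per Ensembl gene, which the authors made with Trimmomatic 0.32, HISAT2 2.1.0 and featureCounts 2.0.0 on GRCh38 per the labels; the strand setting is not given in the sources used here. Of 58825 genes, 58472 were matched to GENCODE 44. In R 4.3.3, edgeR 4.0.16 kept genes by filterByExpr, scaled them by TMM and compared the groups by its quasi-likelihood test with no further covariate (biological coefficient of variation 14.8%). The Benjamini-Hochberg adjustment covered all 19528 genes tested. Alternatives were edgeR's likelihood ratio test, DESeq2 1.42.0, voom of limma 3.58.1, DESeq2's size factors, no filter beyond 1 count, a replicate block, a per-library loess on GC content (span 0.3), the block with that loess, and each library left out; the loess without vector control replicate 2 was added after seeing the data. Deviations of same-numbered libraries were not positively correlated. Code was tested on simulated data. The genes and lists were chosen with earlier results of these data known. Named were the TIMPs, the 5 genes with the highest level per kilobase in each other family, those at an unadjusted p under 0.05, MMP2, MMP9, MMP14, ADAM10, ADAM17 and ADAMTS1 for their roles, the chromosome 11 cluster, and up to 4 genes per related list. MMP21, MMP17, MMP25, PLAUR, TFPI2 and the genes at low counts were named after their values were seen.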

Additional observations from a re-analysis of the deposited data

How the results depend on the processing

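The number of the 66 genes with an adjusted p under 0.05 was 0 in every alternative with all 6 libraries. It was 0 to 7 over the fits without 1 library, the 7 being without vector control replicate 2. Over all genes, the number was 16 with the likelihood ratio test, 1 with DESeq2, 0 with limma voom and 1 with DESeq2's size factors. It was 224 with no filter beyond 1 count, 24 with the replicate block, 0 with the GC correction and 2 with both. The number of the 66 higher at an unadjusted p under 0.05 was 7 in the reported fit, 4 with DESeq2 and 4 with DESeq2's size factors. It was 3 with the replicate block, 2 with the GC correction, 0 with both, and 4 with the GC correction and no vector control replicate 2. Without 1 library it ranged from 0 (without vector control replicate 1) to 9 (without vector control replicate 2); it was 1 without GC0643 overexpression replicate 1, 1 without replicate 3 of that group and 4 without vector control replicate 3. The number lower ranged from 0 to 3 and was 1, TIMP3, with the GC correction and no vector control replicate 2. Past the fold change of 1.5 as well, 0 to 4 were higher without 1 library, and 1, MMP21, with the GC correction and no vector control replicate 2. The median log2 fold change ranged from -0.17 to 0.11 without 1 library, the highest without vector control replicate 3. Shares of all genes at an unadjusted p were counted only for some fits. These were the reported fit, the GC correction, and the fits without vector control replicate 2 or, for higher genes, replicate 3. The other numbers cannot be read against such a share.

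Signs turned for these log2 fold changes. With the GC correction, ADAM11 had 0.034, ADAM15 0.025, ADAM23 -0.051, ADAMTS13 0.039, MMP9 0.039, MMP14 0.0996, MMP15 0.065, MMP16 -0.0061, TIMP1 0.036 and TIMP2 0.024. With the GC correction and the replicate block, ADAM11 had 0.037, ADAM15 0.024, ADAM23 -0.050, ADAMTS13 0.040, MMP2 0.0022, MMP9 0.13, MMP14 0.0996, MMP15 0.065, MMP16 -0.0046, TIMP1 0.034 and TIMP2 0.024. With the GC correction and no vector control replicate 2, ADAM15 had 0.016, ADAM23 -0.11, MMP14 0.078 and MMP15 0.066. ADAMTS2 had -0.015 with DESeq2 and -0.019 with its size factors, and MMP9 had 0.21 with limma voom. Without 1 library, ADAMTS2 ranged from -0.15 to 0.24, ADAMTS13 from -0.36 to 0.019, MMP2 from -0.30 to 0.088, MMP9 from -0.70 to 0.17 and MMP14 from -0.17 to 0.0057. The cause of these turns was not tested.

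The replicate numbers did not pair the libraries: same-numbered libraries had correlations of deviations of -0.22, -0.036 and -0.32, and no library correlated best with its own number. The block is therefore only an alternative. Genes with low counts, such as MMP9, MMP17 and MMP28, limit what could be detected, and for 27 of the 66 genes no comparison was made.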
